A study of Mus musculus with 4 samples.

Results

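Interferon-stimulated genes were followed across cell classes in single-cell RNA libraries of the stromal vascular fraction, the non-adipocyte cells of fat, from gonadal adipose tissue of 18-month-old male mice. The genes were chosen by symbol from a list of 41, of which 40 were among the 31054 features of the count tables. Mx2 was not analysed here. All animals carried p16-CreERT2, a tamoxifen-activated Cre recombinase driven by the promoter of the cell cycle inhibitor p16, together with Rosa26-LSL-tdTomato, and all received tamoxifen, so that cells with an active p16 promoter at that time, and their descendants, carried the tdTomato mark. Such a mark reports past promoter activity and not present p16 protein. Cells were sorted into those without (CD45-) and those with (CD45+) the leukocyte antigen CD45, each parted into Tom+ and Tom- by tdTomato, and each of the 4 groups was 1 library. Values in 4 libraries run from CD45- Tom+ and CD45- Tom- to the 2 libraries labelled CD45+ in the same order. With 1 library per group no test between groups was run, and every interval printed covers counting error only. UMIs of 1 cell are not independent of each other, so the true uncertainty is wider.

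Type I interferons are secreted proteins that bind the IFNAR1 and IFNAR2 receptor chains, whose kinases JAK1 and TYK2 phosphorylate STAT transcription factors. STAT2 and IRF9 act in the complex ISGF3, which binds the interferon-stimulated response element (ISRE) near gene start sites. Interferon gamma acts through IFNGR1 and IFNGR2 and the gamma-activated site (GAS). The induced genes include antiviral effectors, nucleic acid sensors that start a new round of interferon production, and brakes such as USP18. The genes were ordered by these roles. A set of 22, called core genes below, held the classical type I targets (Isg15, Ifit1, Ifit2, Ifit3, Ifit3b, Ifi44, Rsad2, Usp18, Irf7, the Oas genes, Mx1, sensors, Cmpk2, Rtp4 and Herc6). The GTPase genes Ifi47, Gbp2, Gbp3, Irgm1 and Igtp formed a group of 5, and the other 13 were described as remaining members.

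To show these elements in the genes themselves, the promoters of 4 genes on which the results turn are printed from RefSeq, GRCm38.p6, each from 250 bases before to 50 bases after the start site, 5′ to 3′ on the gene's strand. Capitals mark matches to the ISRE letters GAAA, any 2 bases, GAAA on either strand. The windows were chr4:156200769-156201068 on the minus strand for Isg15, chr19:34640639-34640938 on the plus strand for Ifit1, chr12:26456403-26456702 on the minus strand for Rsad2 and chr7:141010695-141010994 on the minus strand for Ifitm3.
Isg15: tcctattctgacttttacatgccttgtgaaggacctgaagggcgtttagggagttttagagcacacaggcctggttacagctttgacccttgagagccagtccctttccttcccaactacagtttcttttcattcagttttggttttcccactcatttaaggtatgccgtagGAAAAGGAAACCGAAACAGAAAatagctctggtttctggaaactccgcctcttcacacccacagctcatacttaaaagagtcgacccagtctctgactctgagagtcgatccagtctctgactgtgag
Ifit1: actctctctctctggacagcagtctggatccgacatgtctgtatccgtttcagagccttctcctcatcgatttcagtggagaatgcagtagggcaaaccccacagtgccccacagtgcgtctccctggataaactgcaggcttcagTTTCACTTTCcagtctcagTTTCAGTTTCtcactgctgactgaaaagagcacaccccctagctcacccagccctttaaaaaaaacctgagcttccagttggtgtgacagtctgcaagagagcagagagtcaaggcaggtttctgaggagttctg
Rsad2: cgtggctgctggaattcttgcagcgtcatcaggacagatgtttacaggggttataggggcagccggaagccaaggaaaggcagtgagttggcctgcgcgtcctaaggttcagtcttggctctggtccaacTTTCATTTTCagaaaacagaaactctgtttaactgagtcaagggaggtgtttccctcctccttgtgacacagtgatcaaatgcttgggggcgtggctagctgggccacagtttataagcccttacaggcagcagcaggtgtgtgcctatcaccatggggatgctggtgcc
Ifitm3: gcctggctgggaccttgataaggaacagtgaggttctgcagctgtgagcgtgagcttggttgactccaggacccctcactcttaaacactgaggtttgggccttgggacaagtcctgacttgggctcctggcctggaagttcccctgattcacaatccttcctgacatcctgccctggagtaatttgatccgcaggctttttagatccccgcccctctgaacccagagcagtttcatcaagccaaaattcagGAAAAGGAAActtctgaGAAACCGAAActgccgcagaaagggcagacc
In Isg15 3 matches overlapped in 1 run whose first base lay 78 bases before the start site, and in Ifit1 a pair of matches began 104 and 85 bases before it. Rsad2 held 1 match beginning 120 bases before the start site. Ifitm3 held 2 matches that began 3 and 20 bases past it, with a GAS match (TTC, any 3 bases, GAA) overlapping the second. Of the 31 members with a promoter in the table, 19 held an ISRE match, against 3.99% of all 27025 symbols in it (3.44% of its 32851 promoters of the same length), and 8 held a GAS match, against 9.55% of symbols (8.30% of promoters). Oas1a, Bst2, Eif2ak2, Ifitm3 and Igtp held both. A match describes letters only.

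Per library 3886, 3674, 1927 and 4391 cells were kept, with median UMI counts of 18331 to 19516. UMIs are molecular barcodes that count 1 captured RNA molecule each, and levels are given as UMIs per 1000000 UMIs summed over the cells of a class (CPM). tdTomato was at 713, 15.8, 714 and 18.7 CPM and matched the Tom label. Ptprc, which encodes CD45, was at 217, 157, 223 and 188 CPM and did not separate the libraries labelled CD45- from those labelled CD45+, and adipose progenitor cells and leukocytes were present in all 4. The libraries are therefore named by their labels only. Pairs of libraries shared 26 to 4394 cell barcodes, of which 1 to 16 per pair were kept in both, and without cells of a shared barcode the summed core ratios, the counts of members past 2-fold, the shares of responding cells and the shares of UMIs in the top cells stayed within their interval or 1.5 times their count. Other values were not recomputed without them. Without the members, cells fell into 29 clusters, of which 21 were named in 15 classes from marker genes. APC-like cells are adipose progenitor-like cells (Pdgfra, Dcn, Col1a1 and others).

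In whole libraries the interferon-stimulated genes were lower with the tdTomato mark. All 40 genes summed to 1499, 3229, 1455 and 3141 CPM, a log2 ratio of Tom+ over Tom- of -1.11 in both pairs. The core genes summed to 261, 445, 272 and 402 CPM, with log2 ratios of -0.77 in the pair labelled CD45- and -0.56 in the pair labelled CD45+. The members with most UMIs, Ifitm3, Ifi27l2a, Slfn5, Bst2, Samhd1, Gbp2, Zbp1, Trim30a, Oasl2 and Parp14, did not move alike. Means over the libraries ran from 1.77 CPM for Mx1 to 887 CPM for Ifitm3, in UMIs and not per length, since the 3′ chemistry counts 1 tag per molecule. Ifitm3, a membrane protein that blocks virus entry, was at 463, 1341, 416 and 1329 CPM. Slfn5, a Schlafen family gene, was at 85.8, 347, 87.6 and 338 CPM. Both were far lower in each Tom+ library than in each Tom- library. Bst2, which encodes the virus tether tetherin, was level at 144, 146, 143 and 143 CPM.

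Zbp1 went the other way. This sensor of Z-form nucleic acid was at 82.2, 29.2, 88.3 and 28.4 CPM, higher in both Tom+ libraries. It was the 1 member of the 36 tested in the pair labelled CD45- that was higher by at least 2-fold, where 3.55% of all features were, and the 1 of 35 in the pair labelled CD45+, where 3.02% were. By the same rule, among features of at least 5 CPM, 17 members were lower in the pair labelled CD45- (19.7% of all features were) and 14 in the pair labelled CD45+ (18.2% were). The median log2 ratio of the members tested was -0.94 and -0.86, against -0.46 and -0.47 over all features tested. Zbp1 had its highest level in plasma cell-like cells, at 150, 144 and 165 CPM in the libraries other than CD45- Tom-. Plasma cell-like cells made up 21.4%, 1.06%, 22.2% and 1.32% of the kept cells.

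Cell classes were unequally spread over the libraries, and in a whole library fewer cells of a class cannot be told apart from less RNA per cell. APC-like cells made up 6.79%, 41.7%, 5.50% and 39.1%, and mesothelial-like cells 1.90%, 10.9%, 1.61% and 9.34%. With both libraries of a pair set to the same mix of the 10 classes that had at least 50 cells in each, the log2 ratio of all members went from -0.50 to -0.14 in the pair labelled CD45- and from -1.02 to -0.27 in the pair labelled CD45+. For the core genes over the same classes it went from -0.38 to -0.15 in the pair labelled CD45- and was -0.19 under both mixes in the pair labelled CD45+. Levels are therefore given by class from here on.

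Mesothelial-like cells, the lining cells of the fat pad (Msln, Upk3b, Krt8), had the highest summed core level in each of the 3 libraries in which they had at least 50 cells. It was 992 CPM in the CD45- Tom+ library, 1047 CPM in CD45- Tom- and 1062 CPM in CD45+ Tom-. With 31 such cells the CD45+ Tom+ library gives no mesothelial-like value, and 3 values for that class leave it out. Cluster 14 was at 829, 857, 536 and 961 CPM. It raised all 6 blood endothelial markers, but also 6 of 6 mural (vessel wall), 3 of 4 adipocyte and 3 of 8 APC markers, so it stays unnamed. Its leading genes included Rbp7, the mural marker Rgs5, Aqp7, Gpihbp1 and Sox17. Neutrophil-like cells were at 858 and 968 CPM in the Tom- libraries, the 2 with at least 50 of them, and their intervals overlapped those of cluster 14 and, in the CD45+ Tom- library, of mesothelial-like cells. Monocyte-like cells were at 792 CPM in the CD45+ Tom- library. Cluster 7 (Cxcl13, Cxcl5, Saa3) was at 455, 584, 433 and 531 CPM.

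**Figure D1:**
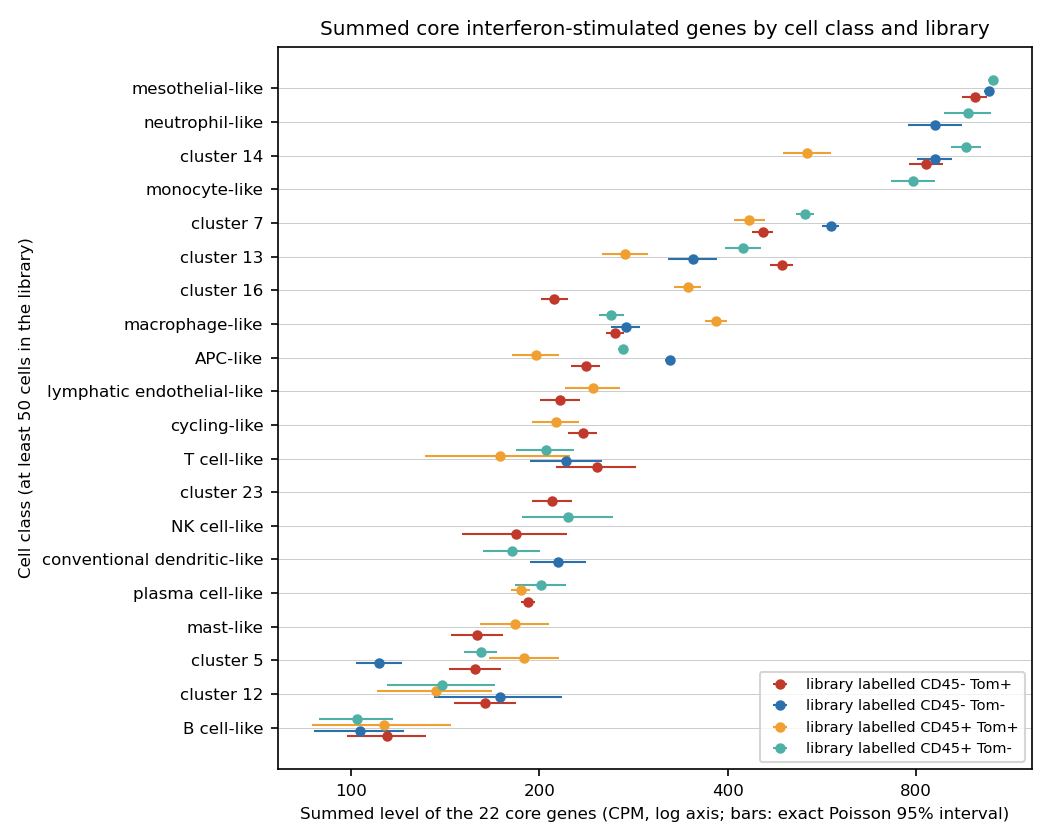
Summed level of the 22 core genes (CPM, log axis) in each cell class and library, with exact Poisson 95% intervals. Mesothelial-like cells are at 992 to 1062 CPM, while B cell-like cells stay at 102 to 114 CPM in all 4 libraries.

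The large classes lay lower. APC-like cells were at 237, 324, 197 and 272 CPM and macrophage-like cells at 264, 275, 383 and 261 CPM. T cell-like cells were at 247, 221, 173 and 205 CPM, and their interval overlapped that of the next lower class in each library. B cell-like cells were lowest in all 4, at 114, 103, 113 and 102 CPM, with an interval apart from that of the next class in the CD45- Tom+ library alone. Levels in mesothelial-like cells exceeded those of APC-like cells by at least 2-fold for 26 of 38 members tested in the CD45- Tom+ library, for 24 of 38 in CD45- Tom- and for 25 of 38 in CD45+ Tom-, where 13.5%, 12.6% and 12.6% of all features did. The 1 member lower by that rule in all 3 libraries was Slfn5. In cluster 14 against APC-like cells the counts were 25 of 36, 22 of 37, 19 of 33 and 25 of 36, where 16.6%, 18.9%, 18% and 19.3% of all features were higher. Monocyte-like cells of the CD45+ Tom- library exceeded macrophage-like cells by 2-fold in 26 of 36 members (12.5% of all features did), and neutrophil-like cells did in 14 of 38 and 18 of 38 in the Tom- libraries (18.2% and 18.8% did).

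Within these classes different genes led. ISG15, a ubiquitin-like protein that is attached to other proteins, is encoded by Isg15 (chr4:156199424-156200818, mm10). Isg15 was highest in neutrophil-like cells of the Tom- libraries, at 166 and 135 CPM, a class with under 50 cells in each Tom+ library. In CD45- Tom+ it was highest in cluster 14, at 68.7 CPM against 58.3 CPM in mesothelial-like cells, and in CD45+ Tom+ in mast-like cells, at 50.7 CPM against 40.7 CPM in cluster 7 and 40.4 CPM in cluster 14, with overlapping intervals. It was at 58.3, 62.4 and 66.0 CPM in mesothelial-like cells and at 21.9, 29.1, 17.5 and 27.0 CPM in APC-like cells. In B cell-like cells it was at 0 to 2.37 CPM. Usp18, the protease that removes ISG15 and damps the receptor, stayed under 20 CPM in these classes, with 16.6, 11.8, 9.33 and 17.0 CPM in cluster 14.

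The IFIT proteins bind foreign RNA. Ifit1 (chr19:34640871-34650009) was at 69.1, 90.7 and 86.8 CPM in mesothelial-like cells, 42.2, 40.9, 15.6 and 33.2 CPM in cluster 14 and 23.6, 29.0, 6.71 and 17.6 CPM in APC-like cells. Ifit2 had another order, with 52.2, 52.7, 22.8 and 67.9 CPM in cluster 14 and no more than 16.8 CPM in mesothelial-like cells. Ifit3 (chr19:34583531-34588731) and Ifit3b lie close to each other and are near-identical copies, so the split of reads between them is uncertain. Ifit3 was at 38.2, 52.8 and 59.4 CPM in mesothelial-like cells.

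Among the nucleotide and lipid enzymes, Rsad2 (chr12:26442746-26456452), which encodes viperin, was highest in cluster 14 in all 4 libraries, at 195, 244, 137 and 357 CPM. It was at 74.3, 96.0 and 85.7 CPM in mesothelial-like cells, at 131 and 105 CPM in neutrophil-like cells and at 6.52, 18.4, 5.22 and 9.65 CPM in APC-like cells. Cmpk2, its neighbour on chromosome 12 and a mitochondrial nucleotide kinase, was also highest in cluster 14 in the CD45- Tom+, CD45- Tom- and CD45+ Tom- libraries, at 41.4, 41.8 and 42.8 CPM. Samhd1, which depletes nucleotides, was instead highest in monocyte-like cells, at 861 CPM, and in neutrophil-like cells, at 670 and 743 CPM.

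The OAS enzymes make a second messenger that activates RNase L, and the OAS-like proteins act beside them. Oasl2 was at 212, 218 and 221 CPM in mesothelial-like cells, at 131 and 175 CPM in neutrophil-like cells and at 20.6 to 28.6 CPM across APC-like and macrophage-like cells in all libraries. Oas3 was at 32.8 and 73.7 CPM in neutrophil-like cells and at 71.9 CPM in monocyte-like cells, while mesothelial-like cells held 4.13 to 5.54 CPM. Mx1, a dynamin-like GTPase, was the member with fewest UMIs. It was at most 2.05 CPM in a whole library and was highest in conventional dendritic-like cells, at 27.2 and 19.4 CPM in the Tom- libraries, and at 12.7 CPM in cluster 13 of the CD45- Tom+ library.

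The transcription factors of the pathway differed among themselves. Irf7, which amplifies interferon genes, was at 104, 101 and 111 CPM in mesothelial-like cells, 123 CPM in monocyte-like cells and 9.70 to 18.7 CPM in APC-like cells. Irf9 and Stat2 encode subunits of ISGF3. Irf9 was at 48.5, 41.1 and 40.9 CPM in mesothelial-like and at 18.7, 20.3, 15.3 and 20.8 CPM in APC-like cells. For Stat2 the values were 18.6, 23.0 and 22.6 CPM in mesothelial-like and 19.6, 23.5, 26.5 and 20.8 CPM in APC-like cells. Stat2 thus did not share the mesothelial-like level of Irf7. Ifih1, which encodes the RNA sensor MDA5, was at 72.2, 66.5 and 63.7 CPM in mesothelial-like, 28.9, 40.5, 26.1 and 35.5 CPM in APC-like and 1.79 to 2.82 CPM in B cell-like cells.

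The GTPase genes, which act on vacuoles that hold microbes and respond strongly to interferon gamma, stood out in mesothelial-like cells. They summed to 747, 741 and 749.5 CPM there, against 126, 123, 131 and 127 CPM in APC-like cells and 334, 368, 248 and 381 CPM in cluster 14. Gbp2 alone gave 496, 481 and 482 CPM in mesothelial-like cells and 57.4, 49.1, 57.4 and 54.7 CPM in APC-like cells. Igtp was at 45.9, 43.7 and 46.6 CPM in mesothelial-like cells and at 47.7 CPM in T cell-like cells of the CD45- Tom- library. In neutrophil-like cells, by contrast, the GTPase genes summed to 96.3 and 90.3 CPM while their core genes were among the highest.

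The remaining members with most UMIs were spread widely. Slfn5 was at 559, 625, 509 and 611 CPM in APC-like cells and at 939, 992, 820 and 1110 CPM in cluster 14, but at 91.3, 105 and 107 CPM in mesothelial-like cells. Ifitm3 was at 2039, 2191 and 2329 CPM in mesothelial-like and 1337, 1408, 1203 and 1468 CPM in APC-like cells, and at 23.3 to 53.7 CPM in B cell-like cells. Ifi27l2a reached 1919 CPM in monocyte-like cells and 666, 896, 726 and 810 CPM in cluster 13. Parp14, a mono-ADP-ribosyltransferase, was at 117, 117, 98.5 and 147 CPM in cluster 14, and Trim30a at 155 and 190 CPM in neutrophil-like cells. These genes have high levels in classes with few core UMIs too, which is why the core set was summed apart.

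**Figure D2:**
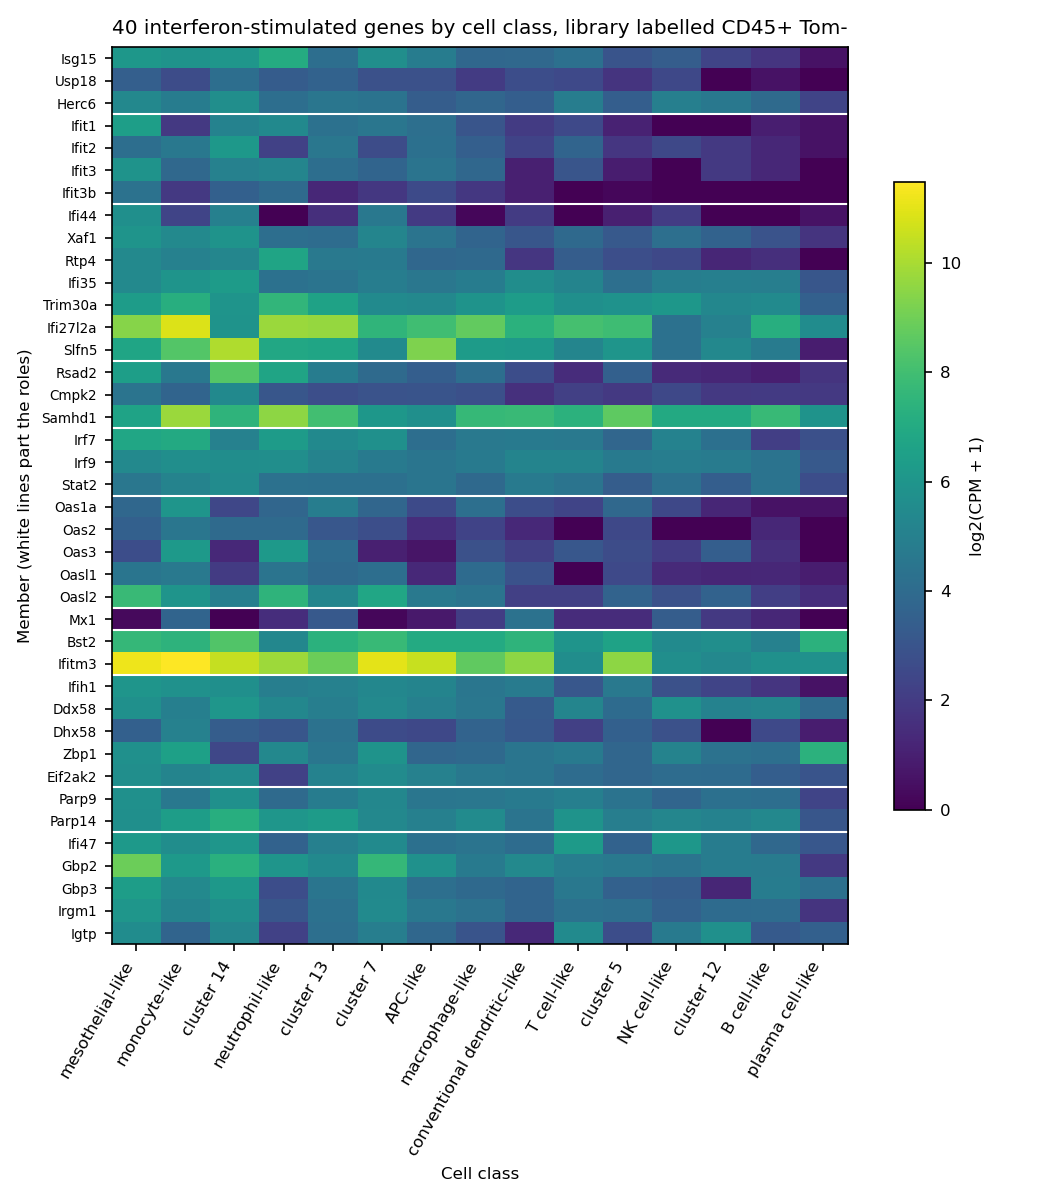
Level of each of the 40 members (rows, parted by role) in the cell classes of the library labelled CD45+ Tom- as log2(CPM + 1), the colour scale. Ifitm3, Ifi27l2a and Slfn5 are bright in several classes, Gbp2 and Oasl2 in mesothelial-like cells, and in plasma cell-like cells most rows are dark, with Zbp1 and Bst2 the brightest.

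Inside APC-like cells the core genes were lower with the tdTomato mark in both pairs at full depth. The levels of 237 against 324 CPM and 197 against 272 CPM gave log2 ratios of -0.45 (95% interval -0.53 to -0.37, CD45-) and -0.46 (interval -0.59 to -0.34). With each cell thinned to 2000 UMIs the second ratio turned to 0.14, and the first was -0.32. The GTPase genes were near level, at 126 against 123 CPM and 131 against 127 CPM. No member was higher by at least 2-fold in either pair, where 1.57% and 1.02% of all features were. In the pair labelled CD45- 2 of 33 members tested, Rsad2 and Ifit3, were lower by at least 2-fold, where 0.161% of all features were. In the pair labelled CD45+ 2 of 31, Ifit3 and Ifit1, were, where 0.478% were. The median log2 ratio of the members tested was -0.24 and -0.28, against -0.029 and -0.049 over all features.

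Ifit3 was at 10.2 against 23.6 CPM and at 8.21 against 20.6 CPM in APC-like cells, log2 ratios of -1.21 (-1.61 to -0.83) and -1.33 (-2.01 to -0.72). Rsad2 was at 6.52 against 18.4 CPM and 5.22 against 9.65 CPM, log2 ratios of -1.50 (-2.00 to -1.03) and -0.89 (-1.77 to -0.12). Ifit1 was at 23.6 against 29.0 CPM and 6.71 against 17.6 CPM, log2 ratios of -0.30 and -1.39. Both Tom+ values of each of these genes lay below both Tom- values, except Ifit1 in the CD45- Tom+ library, which lay above the CD45+ Tom- value. Isg15 and Ifih1 completed the 5 smallest ratios, at -0.41 and -0.62 for Isg15 and -0.48 and -0.44 for Ifih1. At the other end stood Zbp1 at 0.44 and 0.16, Gbp2 at 0.23 and 0.071, Ifi47 at -0.19 and 0.42, Stat2 at -0.26 and 0.34 and Igtp at 0.068 and -0.054.

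In macrophage-like cells, which were clusters 8 and 11, the core ratio was near 0 in 1 pair and above 0 in the other. The core genes were at 264 against 275 CPM in the pair labelled CD45-, a log2 ratio of -0.056, and at 383 against 261 CPM where the label was CD45+, with a log2 ratio of 0.56 (interval 0.47 to 0.65). The first value depended on the clustering, with 0.39 and 0.57 for the pairs at Leiden resolution 2 and 0.12 and 0.43 with 4000 variable genes. Under the main clustering Usp18, Rsad2, Cmpk2, Ifit1, Ifit2, Ifit3 and Ifit3b were at least 2-fold higher in the pair labelled CD45+. These were 7 of 37 members tested, where 0.721% of all features were higher by that rule. In the pair labelled CD45- 1 of 35, Ifit1, was, where 0.552% were. No member was lower by at least 2-fold in either pair, where 0.902% (CD45-) and 1.05% (CD45+) of all features were. Rsad2 was at 23.6, 30.2, 63.7 and 16.6 CPM, and Cmpk2 at 7.32, 9.44, 20.8 and 5.91 CPM. Both were highest in the CD45+ Tom+ library.

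Ifit1 was at 11.3, 3.96, 16.8 and 7.20 CPM in macrophage-like cells, higher with the mark in both pairs with log2 ratios of 1.51 (0.84 to 2.24) and 1.22 (0.71 to 1.74). Without 18 cells chosen on 6 core genes, described below, the second ratio turned to -0.28 (-1.69 to 1.06). Gbp2 and Oasl1, an OAS-like gene, also had intervals above 0 in both pairs, with log2 ratios of 0.81 and 0.35 for Gbp2 and 0.77 and 0.47 for Oasl1. Without those cells the intervals in the pair labelled CD45+ held 0, at 0.23 (-0.085 to 0.54) for Gbp2 and 0.13 (-0.34 to 0.59) for Oasl1. Over all cells of the class Oas1a, Ifi27l2a and Ifitm3 had intervals below 0 in both. Oas1a gave -0.73 and -0.83, Ifi27l2a -0.58 and -0.67 and Ifitm3 -0.23 and -0.25. The smallest ratios further held Dhx58, a sensor helper, at -0.57 and -0.062 and Xaf1, which promotes cell death, at -0.40 and -0.18.

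The other classes with at least 100 cells in both libraries of a pair gave no common direction. Clusters 5 and 13 also raised 7 of 7 macrophage markers, but another class led their top genes, so they stay unnamed. The core log2 ratio was 0.51 in cluster 5 (CD45-) and -0.63 in cluster 13 (CD45+), so the macrophage-like values do not cover all cells with macrophage markers. In the pair labelled CD45-, cluster 5 had 3 of 28 members at least 2-fold higher with the mark, Gbp2, Rsad2 and Rtp4, and none lower, where 1.09% and 1.15% of all features were. B cell-like cells had 1 of 23 higher, Zbp1, and 3 lower, Irf7, Igtp and Xaf1, where 2.41% and 5.52% were. T cell-like cells had Zbp1, Cmpk2 and Ifit1 higher and Ifih1, Isg15 and Stat2 lower among 32, where 4.45% and 7.9% were. Cluster 7 had none of 36 past 2-fold, where 1.45% and 0.544% of all features were, and the median log2 ratio was -0.39 over the members and -0.12 over all features. In the pair labelled CD45+, cluster 13 had none of 37 higher and 7 lower, Gbp2, Oas3, Herc6, Usp18, Ifit1, Ifit2 and Ifit3, where 3.18% and 2.94% were.

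To describe how much of these levels a few cells held, cells were chosen on 6 core genes, Isg15, Ifit1, Ifit3, Ifit3b, Rsad2 and Oasl2, by at least 3 UMIs of these after each cell was thinned to 2000 UMIs, and 59 of 3613 APC-like cells met this, 1, 31, 1 and 26 per library. The 6 genes are part of the core sum and nearly all of these cells came from the Tom- libraries, which also held most APC-like cells, so leaving them out lowers the Tom- level by construction and what follows is a description. Without them the core genes in APC-like cells were at 224 against 231 CPM and at 191 against 209 CPM, log2 ratios of -0.046 (-0.13 to 0.04) and -0.14 (-0.27 to -0.01). Rsad2 then stood at -0.29 and 0.076 and Ifit3 at -0.27 and -0.15. Ifit1 turned to 0.81 (0.50 to 1.11) in the pair labelled CD45-. In macrophage-like cells 18 of 1241 cells met the rule, 6, 2, 6 and 4 per library, and without them the core ratio of the pair labelled CD45+ turned from 0.56 to -0.26 (-0.39 to -0.13). No member was then past 2-fold in APC-like cells of either pair or in macrophage-like cells of the pair labelled CD45+. The ratio of Ifit1 in the pair labelled CD45- was 1.51 with and without them, while that in the pair labelled CD45+ turned from 1.22 to -0.28.

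**Figure D3:**
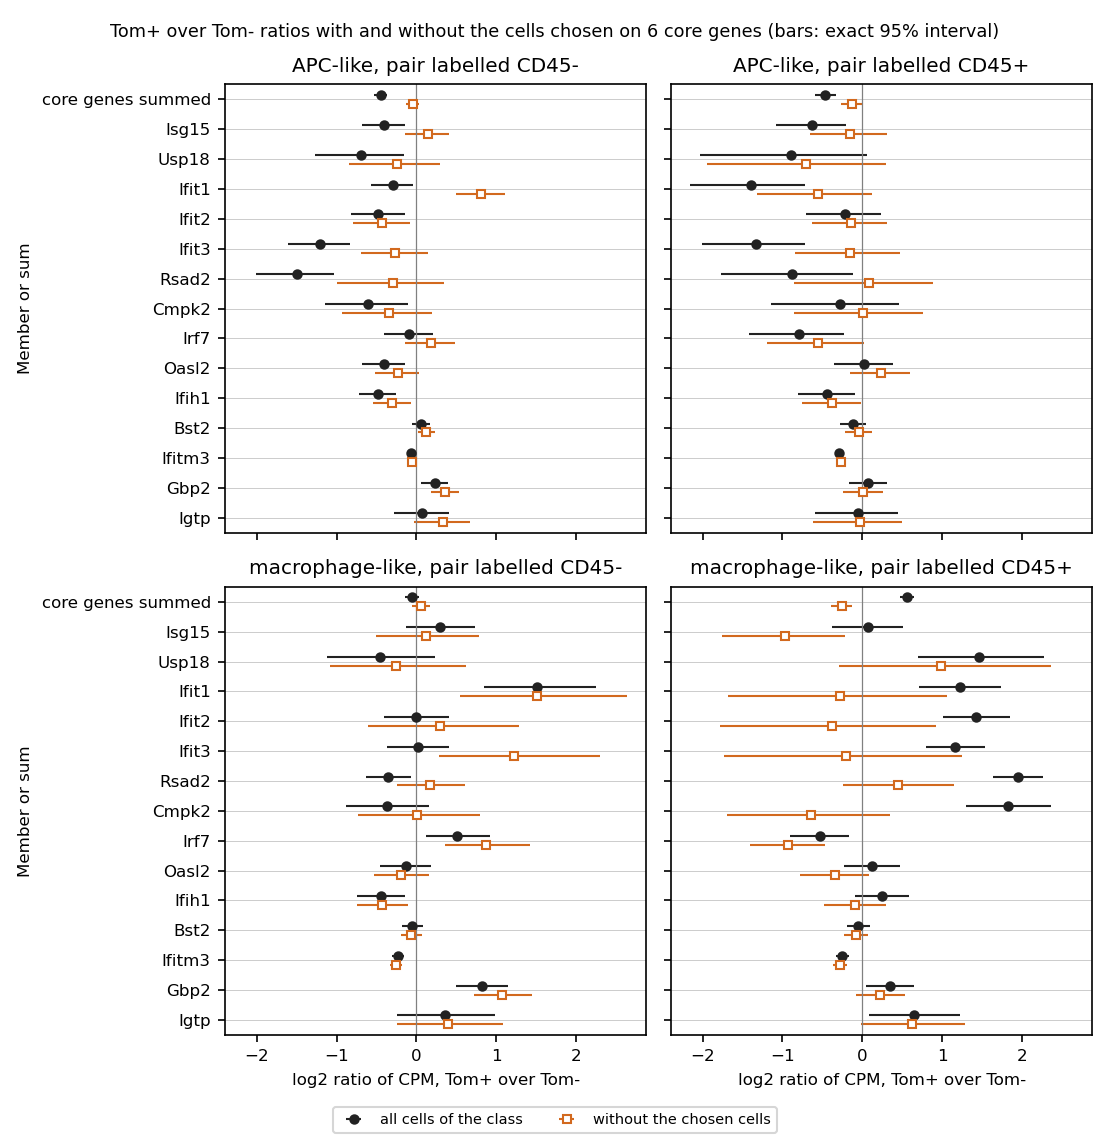
log2 ratio of CPM, Tom+ over Tom-, for the summed core genes and 14 members in APC-like and macrophage-like cells of each pair, with exact 95% intervals, over all cells of the class (black circles) and without the cells chosen on 6 core genes (open squares). In APC-like cells the summed ratio moves from -0.45 to -0.046 and from -0.46 to -0.14, and in macrophage-like cells of the pair labelled CD45+ from 0.56 to -0.26.

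The share of cells that showed several core genes differed between classes. With each cell thinned to 2000 UMIs, 635 of 13818 cells showed at least 3 core genes, 2.53%, 6.79%, 2.59% and 5.48% per library. In mesothelial-like cells 213 of 906 did (23.5%, exact binomial interval 20.8% to 26.4%), and the share was 21.9%, 24.8% and 22.8% in the 3 libraries with 50 or more. Cluster 14 was at 15.8%, neutrophil-like cells at 15.4%, monocyte-like cells at 13.2% and cluster 7 at 11.4%. APC-like cells were at 3.16% and macrophage-like cells at 2.90%, with overlapping intervals. Within APC-like cells the share was 3.44%, 3.86%, 3.77% and 2.45%, and within macrophage-like cells 3.40%, 2.90%, 2.50% and 2.42%, with intervals of Tom+ and Tom- that overlapped in each pair of each class. At the same depth 2 of 1355 plasma cell-like cells (0.148%) and 0 of 771 B cell-like cells did, the latter allowing up to 0.389% by the limit of 3 counts. These shares are set beside the others because free RNA, which was not estimated here, can give UMIs in any droplet. Without thinning the share was 97.5% in mesothelial-like, 57.2% in APC-like, 46.1% in macrophage-like, 25.1% in plasma cell-like and 3.50% in B cell-like cells, with median depths of 30124, 22432, 23110, 38756 and 5841.5 UMIs.

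In mesothelial-like cells the 2% of cells with most core UMIs held 10.4% of them, with a variance to mean ratio (Fano factor) of 2.22. The same share of APC-like cells held 31.3% (Fano factor 5.07) and of macrophage-like cells 40.1% (6.08). Means were 2.01, 0.571 and 0.512 core UMIs per cell in these classes in turn. In APC-like cells it was 33.4% and 30.7% in the Tom- libraries, against 21.5% and 20% in the Tom+ libraries with their 262 and 106 cells. Macrophage-like cells gave 35.5%, 49.2%, 42.4% and 34.4%. B cell-like cells gave 20.3% with a Fano factor of 1.01 and a mean of 0.192, and a Fano factor near 1 means counts spread over cells at random. The share in the top 2% is thus high by sampling alone where the mean is low. Its order over classes does not measure how the response is spread. Neutrophil-like cells combined a high level with a Fano factor of 11.6.

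**Figure D4:**
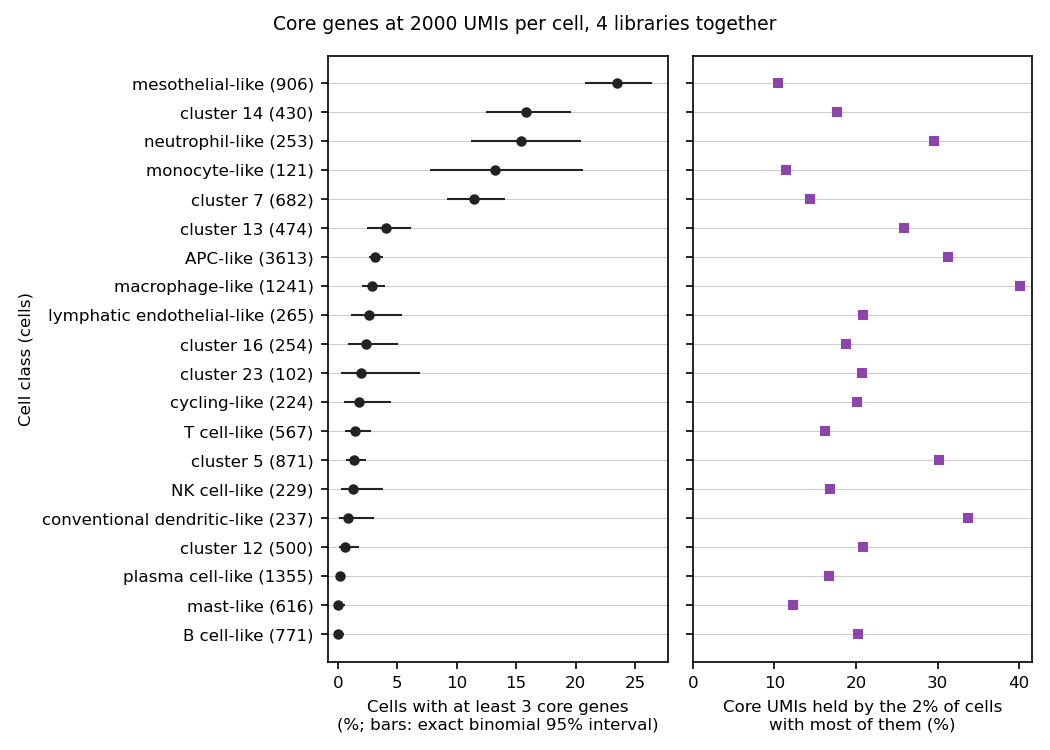
Left, percent of cells with at least 3 core genes at 2000 UMIs per cell, with exact binomial 95% intervals, by cell class over the 4 libraries together. Right, percent of core UMIs held by the 2% of cells with most of them. Mesothelial-like cells lead on the left (23.5%) and are lowest on the right (10.4%), and macrophage-like cells lead on the right (40.1%). Both percentages depend on the core level of a class, so neither order measures how the response is spread.

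The members that took no part in the choice were high in the chosen cells too. The 16 core genes that were not used to choose them (Usp18, Irf7, Ifi44, Mx1, sensors and others) were at 1678 CPM in the 59 APC-like cells, against 149 CPM in the other APC-like cells, a log2 ratio of 3.49 (3.27 to 3.72). It was 3.42 in the CD45- Tom- library and 3.52 in CD45+ Tom-. In the 18 macrophage-like cells they were at 2694 against 137 CPM (4.29), in 33 neutrophil-like cells at 1803 against 248 CPM (2.86), in 41 cells of cluster 14 at 1268 against 294 CPM (2.11) and in 93 mesothelial-like cells at 871 against 461 CPM (0.92). Of these 5 classes the contrast was smallest in mesothelial-like cells, which had the highest share of responding cells. A fixed cut of 3 UMIs is met more often by sampling alone where the level of a class is high. The share and the contrast therefore both depend on that level, and their order over classes does not measure how the response is spread. The chosen APC-like cells held 27.6% of the core UMIs of their class, and the chosen macrophage-like cells 34.3% of theirs.

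By the 2-fold rule all 16 of these genes, all 5 GTPase genes and 11 of 13 remaining members were higher in the chosen APC-like cells, where 2.12% of all features were higher and 1.93% lower. The rule admits a gene by the mean of both groups. A gene near 0 in the other cells, such as Mx1, therefore enters only if it is high in the chosen cells. For such genes the call was fixed in advance, in the classes below too, so these counts are descriptions only. Ifitm3 and Slfn5 were the exceptions. Mx1 was at 52.4 against 0.318 CPM, Usp18 at 109 against 5.38 CPM, Irf7 at 190 against 14.5 CPM and Ifih1 at 293 against 32.6 CPM. Gbp2 was at 270 against 49.1 CPM, while Ifitm3, at 2369 against 1410 CPM, differed less. In macrophage-like cells all 16, all 5 GTPase genes and 12 of 13 remaining members were higher, where 5.16% were, and Ifi27l2a, at 320 against 394 CPM, was not. Ifit2 stood at 694 against 2.58 CPM there. With the libraries pooled, all 14 tested, all 5 GTPase genes and 9 of 13 remaining members were higher in neutrophil-like cells, where 12.2% were. The 33 chosen neutrophil-like cells were shallow, with a median of 3946 UMIs, and single genes differed by library. Gbp2 was at 0 against 48.6 CPM in CD45- Tom- and at 288 against 31.5 CPM in CD45+ Tom-. In cluster 14 the counts were 13 of 14, 5 of 5 and 5 of 13, where 4.24% were, with Ifi27l2a lower, as 7.45% of all features were. In mesothelial-like cells 6 of 15, 2 of 5 and 1 of 13 were higher, where 0.361% were.

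**Figure D5:**
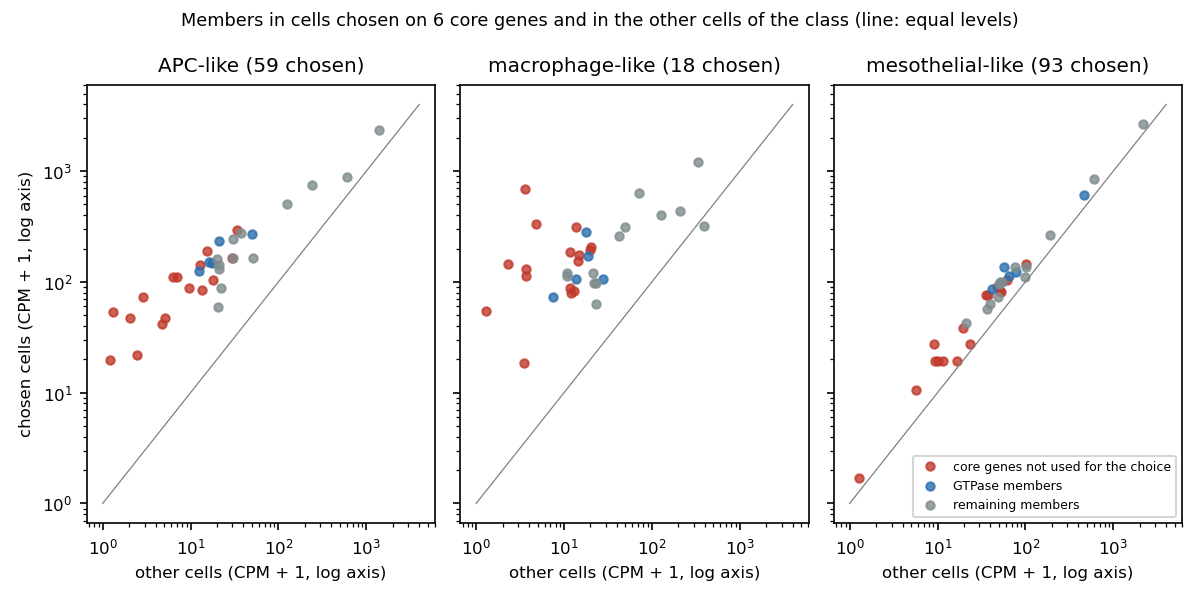
Level of each member not used for the choice in the chosen cells (vertical axis) against the other cells of the class (horizontal axis), both as CPM + 1 on log axes, with the line of equal levels. Most points lie far above the line in APC-like and macrophage-like cells. The exceptions are Ifitm3 and Slfn5 in APC-like cells, which are not 2-fold higher, and Ifi27l2a in macrophage-like cells, which lies below the line. In mesothelial-like cells most points lie close to it.

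Markers of other classes were mostly no higher in chosen cells. In the chosen APC-like cells APC markers were at 39900 CPM against 37632 CPM in the others, macrophage markers at 63.1 against 73.7 CPM and plasma cell markers at 377 against 574 CPM, and their median depth was 22876 against 22435.5 UMIs. Chosen macrophage-like cells had macrophage markers at 9785 against 9365 CPM, plasma cell markers at 1377 against 1183 CPM, T cell markers at 31.3 against 14.9 CPM and a median depth of 29324 against 22995 UMIs, and the part of these in the result was not tested. tdTomato was at 31.6 against 72.5 CPM in APC-like cells and 320 against 426 CPM in macrophage-like cells. These values pool the libraries. Of the 59 chosen APC-like cells 31 and 26 came from the Tom- libraries, so the make-up by library enters the tdTomato level, and its part was not tested. By cluster, the chosen APC-like cells lay in clusters 1, 2, 3 and 20, with 19, 16, 20 and 4 cells, whereas 17 of the 18 chosen macrophage-like cells lay in cluster 8 (Gpnmb, Atp6v0d2, Lgals3) and 1 in cluster 11 (Marco, Vsig4).

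Genes outside the list differed between chosen and other cells too. In APC-like cells Cxcl10, a chemokine that draws T cells, was at 900 against 38.8 CPM and the immunity-related GTPase gene Iigp1 at 667 against 52.3 CPM, with Phf11d, Rnf213, Slfn8, Gbp7 and Irgm2 also among the largest differences. In macrophage-like cells Slfn1 was at 106 against 1.12 CPM and Ifi204, of the interferon-inducible p200 family, at 707 against 63.5 CPM. Cxcl10 was at 17.4 against 6.87 CPM in chosen macrophage-like cells with the libraries pooled. It was at 64.3 against 7.57 CPM in the 6 chosen cells of CD45- Tom+, a log2 ratio of 3.09 (1.98 to 4.03). In the 6 of CD45+ Tom+ it was at 0 against 7.20 CPM and in the 4 of CD45+ Tom- at 0 against 6.05 CPM. Upper limits of the log2 ratio there were 1.35 and 1.96, so a smaller rise could be missed. No value was taken for the 2 chosen cells of CD45- Tom-. These names were taken by size after the values were seen.

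Of the wider pathway 58 genes were found outside the members. The type I ligand genes had almost no UMIs. Of 18 type I interferon genes 13 had no UMI in any of 13878 kept cells, and the other 5 had 28 UMIs in 26 cells among 308877315 UMIs, 15 of them from Ifnz and 2 from Ifnb1. Ifng had 935 UMIs in 404 cells and was at 182 CPM in NK cell-like cells of both libraries with at least 50 of them. T cell-like cells held 106, 94.4, 77.6 and 69.2 CPM. APC-like cells held at most 0.590 CPM and mesothelial-like cells at most 0.401 CPM.

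Receptor genes differed in which class held most. Ifnar1 was at 38.8, 42.6, 43.3 and 42.5 CPM in APC-like cells and at 73.6, 74.2, 79.9 and 77.4 CPM in macrophage-like cells. Ifnar2 was at 288, 274 and 258 CPM in mesothelial-like and at 285 and 284 CPM in mast-like cells of the Tom+ libraries, against 91.0, 104, 91.7 and 104 CPM in APC-like cells. Ifngr1 had a lower level in mesothelial-like cells, at 67.6, 73.3 and 80.0 CPM, than in APC-like cells, at 152, 152, 142 and 155 CPM, and reached 1316 CPM in cluster 12. Ifngr2 was at 113, 125, 119.5 and 121 CPM in macrophage-like cells, and Il10rb reached 190 CPM there.

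Among the transducers and transcription factors Jak1 reached 720 CPM in NK cell-like cells, Jak2 398 CPM, Irf8 836 CPM and Tyk2 54.8 CPM in conventional dendritic-like cells, Stat3 376 CPM in mesothelial-like cells, Irf1 197 CPM in T cell-like cells and Irf2 192 CPM in B cell-like cells. The brakes and editors Socs3, Socs1, Ptpn2, Ptpn6, Nlrc5, Isg20 and Adar peaked in different classes, between 45.3 CPM for Adar in mesothelial-like cells and 514 CPM for Socs3 in APC-like cells of the CD45+ Tom+ library. Socs1 peaked at 116 CPM in T cell-like cells, Ptpn2 at 227 CPM in mast-like, Ptpn6 at 429 CPM in neutrophil-like, Nlrc5 at 92.5 CPM in NK cell-like and Isg20 at 67.3 CPM in plasma cell-like cells.

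Upstream sensors and adaptors, which start interferon production, had their highest levels in several classes. Tbk1 (101 CPM), Tlr4 (105 CPM) and Myd88 (144 CPM) were highest in neutrophil-like cells, Irf5 (275 CPM) in monocyte-like cells, Tlr7 (85.5 CPM) and Mavs (21.0 CPM) in cluster 13, Ikbke (85.1 CPM) in cluster 5, and Tlr3 (70.3 CPM) and Tmem173 (90.3 CPM) in conventional dendritic-like cells. Mb21d1 reached 26.9 CPM in T cell-like cells and Irf3 39.1 CPM in cluster 14. These are the highest values over classes and libraries, and each comes from 1 library.

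The interferon-induced chemokines parted from each other. Cxcl10 was at 160, 154 and 116 CPM in mesothelial-like cells, 40.1, 55.0, 56.3 and 52.4 CPM in APC-like cells and up to 385 CPM in cluster 7. Cxcl9, which is known mainly as a target of interferon gamma, was at 266, 340, 165 and 288 CPM in cluster 14 and at no more than 0.562 CPM in mesothelial-like cells. In APC-like cells Cxcl9 was at 135 against 25.9 CPM in the pair labelled CD45-, the 1 of 31 pathway genes tested that was higher by at least 2-fold, where 1.57% of all features were, and at 42.1 against 38.1 CPM in the pair labelled CD45+, where none of 29 was, against 1.02% of all features. In macrophage-like cells none of 31 was past 2-fold in either pair, where 0.552% of all features were higher and 0.902% lower in the pair labelled CD45-, and 0.721% and 1.05% in the pair labelled CD45+. In the chosen APC-like cells Adar, Cxcl9, Cxcl10, Isg20, Tlr3 and Nlrc5 were among the pathway genes that were higher by at least 2-fold, and Ticam1 was lower. The receptor genes Ifnar1, at 35.9 against 42.4 CPM, and Ifnar2, at 89.7 against 103 CPM, differed little.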

How the data were processed

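Stromal vascular cells of gonadal fat were captured by 10x 3′ chemistry in 4 libraries, 1 per sort group. According to the labels, reads were processed with Cell Ranger 3.0.2 on mm10, and the authors deposited unnormalised UMI counts per gene and cell barcode. The tables held 7815, 11255, 3429 and 11068 barcodes and 139397501, 110410319, 64083756 and 136459745 UMIs. The protocol text repeats the CD45- Tom- sort and leaves out the CD45+ Tom- sort, and groups were taken from each sample's group label.

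Cells with 1000 to 7000 genes and at most 8% mitochondrial UMIs were kept after the barcodes ranked highest by Scrublet (0.8% per 1000 barcodes) were left out as doublets. Counts were scaled to 10000 per cell, and 2000 variable genes without the members, the pathway genes and tdTomato gave 30 components, 15 neighbours and Leiden clusters at resolution 1 (scanpy 1.11.5, leidenalg 0.10.2, scipy 1.17.1). A cluster was named where its markers were raised (at least 20 CPM and 4-fold, at least 3 markers) and no unrelated class was raised nearly as much, and these naming thresholds were set after the data had been seen. Levels are counts summed over the cells of a class per 1000000 UMIs (CPM), with exact Poisson intervals. Ratios have exact conditional intervals and shares Clopper-Pearson intervals, all at 95%, and a share of 0 is given with the limit of 3 counts. Levels were given for classes of at least 50 cells and ratios for at least 100 in each library, and a gene entered a count by the 2-fold rule with a mean of at least 5 CPM. The steps were tested on simulated data.

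With 1 library per group the planned readings are values without a test, where the study tested over cells. The members and lists were chosen with earlier results of these data known. Genes named were the 10 members with the highest mean CPM, 15 representatives of the roles, the 5 largest and 5 smallest mean ratios in APC-like and macrophage-like cells, and pathway genes of at least 20 CPM in some class. Others are named where a count of 2-fold members lists them or where they were picked out after their values were seen. Positions came from GENCODE for mm10 and promoters from RefSeq. Results for 1 pathway gene are not reported here.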

Additional observations from a re-analysis of the deposited data

Results flagged for a closer look

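In macrophage-like cells the ratio of Tom+ over Tom- of 4 members among the most abundant or most changed had opposite signs in the pairs, and with 1 library per group the difference between pairs was not tested. Rsad2 (viperin) had a log2 ratio of -0.35 in the pair labelled CD45- and 1.94 in the pair labelled CD45+. Irf7, a transcription factor of interferon genes, had 0.51 and -0.54. Slfn5 had -0.18 and 0.25, and Samhd1, which depletes nucleotides, had -0.25 and 0.15. Without the cells chosen on 6 core genes Rsad2 was at 0.17 and 0.44, so that its signs were then alike, while Irf7 was at 0.87 and -0.93, Slfn5 at -0.23 and 0.17 and Samhd1 at -0.24 and 0.16.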

How the results depend on the processing

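Of 170 values under an alternative, 98 stayed within the interval or within 1.5 times the count, 68 moved and 4 reversed. No paired analysis was run, since no result comes from a test, and no replicate could be left out with 1 library per group. The cause of a moved value was not tested. The core log2 ratio over all cells was -0.64 (CD45+) under a looser cell filter (500 genes, mitochondrial share up to 20%), -0.69 and -0.53 with doublets kept, -0.70 (CD45-) with each cell given the same weight, -0.73 and -0.52 after thinning to 2000 UMIs, and -0.72 and -0.61 without the top 2% of cells. Summed over all members it was -1.11 in both pairs over all cells, -0.13 and -0.29 in APC-like cells, and -0.24 and -0.047 in macrophage-like cells, the last reversed. In APC-like cells the core ratio was -0.31 and -0.29 with equal cell weights (0 and 1 members past 2-fold), -0.32 and, reversed, 0.14 after thinning (9 members past 2-fold in the pair labelled CD45+), and -0.076 and -0.20 without the top 2% of cells. In macrophage-like cells it was 0.39 (CD45-) at resolution 2, 0.12 and 0.43 with 4000 variable genes, 0.35 (CD45+, with 4 members past 2-fold in the pair labelled CD45-) after thinning, and, reversed, -0.26 (CD45+) without the top 2% of cells. Without a filter on low values 4 and 6 members were past 2-fold in APC-like cells, and at 20 CPM 11 and 9 were over all cells, 0 and 0 in APC-like and 0 and 2 in macrophage-like cells.

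The share of cells with a core response was 5.74% (CD45- Tom-) and 1.93% (CD45+ Tom+) under the looser cell filter, 5.81% (CD45- Tom-) with doublets kept, 30.2%, 57.8%, 31.9% and 55.1% over all members, 8.76%, 18.6%, 8.73% and 16.7% at 5000 UMIs per cell, and 0.749%, 1.67%, 0.675% and 1.42% for at least 5 core genes. The share of core UMIs in the top 2% of cells was 23.7% (CD45- Tom+) under the looser filter, 23.3%, 22.8% and 22.9% (CD45- Tom+, CD45- Tom- and CD45+ Tom-) at 5000 UMIs, and 12.3%, 9.34%, 12.1% and 9.70% over all members. Chosen after seeing the data, the same class mix gave -0.15 and -0.19. Leaving out the chosen cells, also added later, gave -0.57 and -0.51 over all cells, -0.046 and -0.14 in APC-like cells (0 members past 2-fold in each pair), and 0.054 and, reversed, -0.26 in macrophage-like cells (2 and 0 members).

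Depth limits single genes most, as members such as Mx1 and Oas3 had few UMIs in most classes, and the CD45+ Tom+ library gave 106 APC-like cells. Intervals cover counting error only, so a difference between libraries past its interval can still come from animal, sort or capture, which cannot be told apart from the group.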
